A study of Mus musculus with 8 samples.

Results

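The 31 genes described here encode the contractile apparatus of smooth muscle, and all 31 were found by symbol among the 36333 genes listed for ventral prostate. Ventral prostate RNA of 4 hSKP2-KI and of 4 WT males was sequenced, with 1 library per mouse, and every mouse was 12 months old. The hSKP2-KI males were offspring of heterozygous females and wild-type FVB/N males. The strain of the founders is not given in the sources used here. In the hSKP2-KI mice the coding sequence of human SKP2, preceded by a P2A peptide, had been inserted by CRISPR/Cas9 into exon 1 of the endogenous probasin gene (Pbsn), so that the probasin promoter drives it, and the WT mice carry no insertion. Probasin is made by the secretory epithelium of the prostate, not by its muscle, and which founder line gave the sequenced mice is not given in the sources used here. All 31 genes had a TPM (a relative transcript level, reads on a gene divided by its length and scaled to the same total in every library) of 1 or more in 4 or more of the 8 mice and so were among the 13080 genes tested.

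The ducts of the mouse prostate are wrapped in a thin sleeve of smooth muscle, and vessel walls in the lobe hold smooth muscle as well. In these cells calcium entering through membrane channels or released from internal stores binds calmodulin, which activates myosin light chain kinase, and phosphorylated myosin then pulls on actin filaments that are anchored to dense bodies and to adhesion sites at the membrane. The transcription factors SRF and myocardin act together on many genes of this apparatus through a short DNA motif, the CArG box. The defining markers Acta2, Myh11, Actg2, Cnn1 and Myocd were detected in every mouse.

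TPM sums to the same total in every library, and the 3 most abundant genes took 32.1 to 34.3% of that total in hSKP2-KI mice and 40.4 to 45.8% in WT mice. Over all 13080 genes tested, the median log2 fold change was 0.23 with TPM as deposited and -0.01 after median-ratio scaling, in which each library is divided by its median ratio to a common reference. The results are therefore given on both scales. Skp2 TPM was 48.1 ± 10.1 (SD, n = 4) in hSKP2-KI mice and 1.75 ± 0.528 (SD, n = 4) in WT mice, and Pbsn TPM was 115 ± 39.6 and 5984 ± 2447, so the libraries follow their labels. How reads from the human sequence were assigned is not given in the sources used here.

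With TPM as deposited, 29 of the 31 smooth muscle genes were higher in hSKP2-KI mice at an adjusted p under 0.05 (limma on log2(TPM + 1), Benjamini-Hochberg over all genes tested), where 32.7% of all genes tested were called higher. None of the 31 was lower, either at that threshold or at an unadjusted p under 0.05, against 1.23% of all genes called lower. The log2 fold change of the members (the log2 change, hSKP2-KI minus WT) ran from 0.19 for Kcnma1 to 1.02 for Cald1, with a median of 0.70. After median-ratio scaling, 16 of the 31 were called higher and 0 lower (0 at an unadjusted p under 0.05), against 6.92% and 4.25% of all genes, and the median log2 change of the members was 0.48. This second count changed with the mice included: it was 21 without hSKP2-KI replicate 3, 9 without hSKP2-KI replicate 1, 7 without hSKP2-KI replicate 2, 8 without WT replicate 1 and 7 without WT replicate 2. Of the 31 genes, 15 were called higher with TPM as deposited and under each of the 3 other scalings tried, namely Actg2, Myh11, Cnn1, Lmod1, Mylk, Tpm1, Tpm2, Synpo2, Cald1, Synm, Pdlim3, Csrp1, Pgm5, Jph2 and Ppp1r12b. The matching count over all genes was not computed. It cannot exceed 709 of 13080, the number called higher under quantile normalization. Both scales give relative levels. In whole tissue, more smooth muscle cells, more RNA of these genes per cell and less RNA from other cells cannot be told apart.

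**Figure D1:**
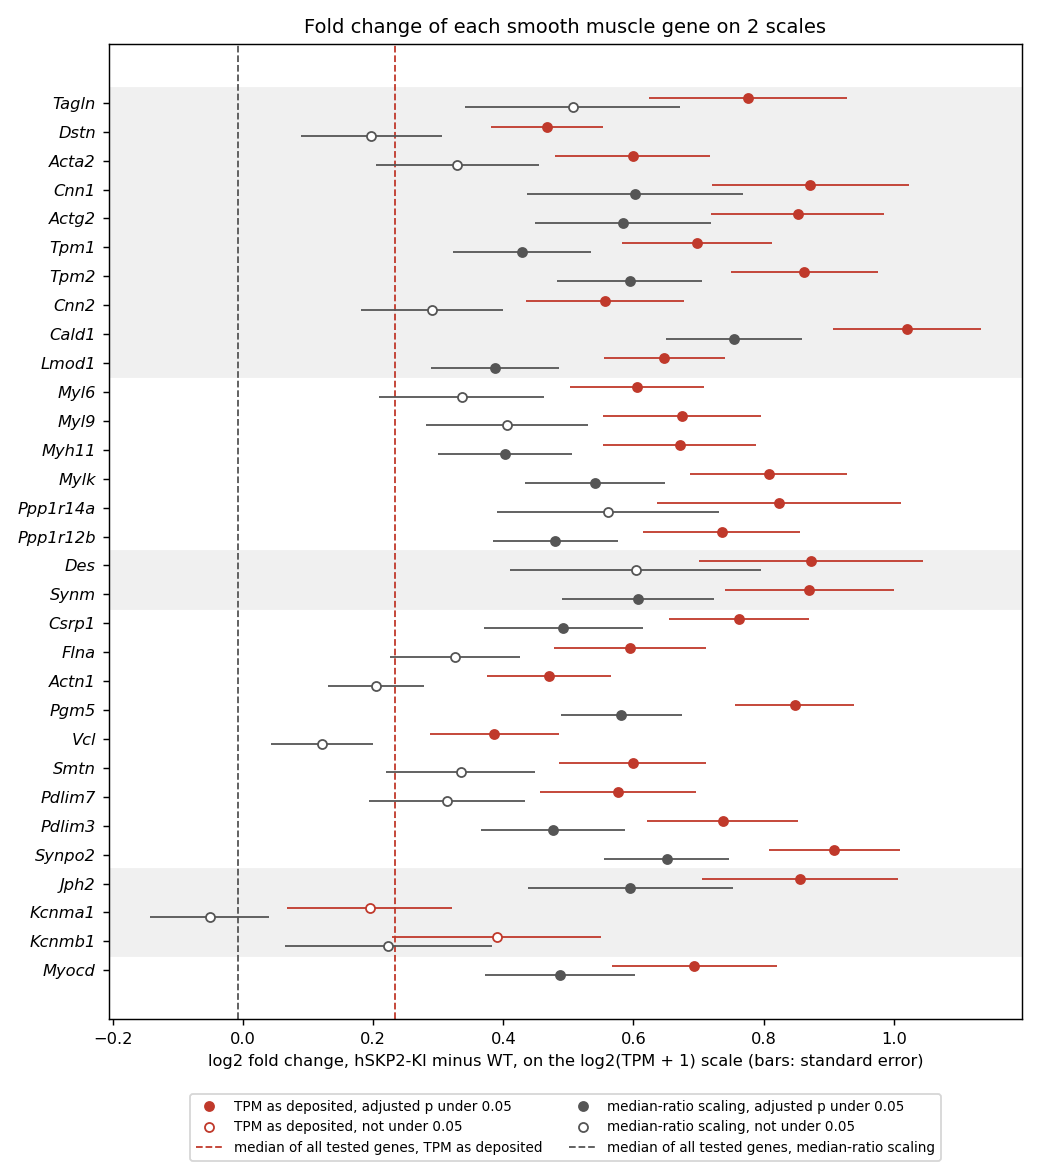
Log2 fold change of each of the 31 genes (hSKP2-KI minus WT, log2(TPM + 1) scale, bars are standard errors) with TPM as deposited in red and after median-ratio scaling in grey, grouped by role from thin filament at the top to the transcription factor at the bottom. Filled points had an adjusted p under 0.05 (29 red, 16 grey), and the dashed lines mark the median of all genes tested, 0.23 and -0.01.

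**Figure D2:**
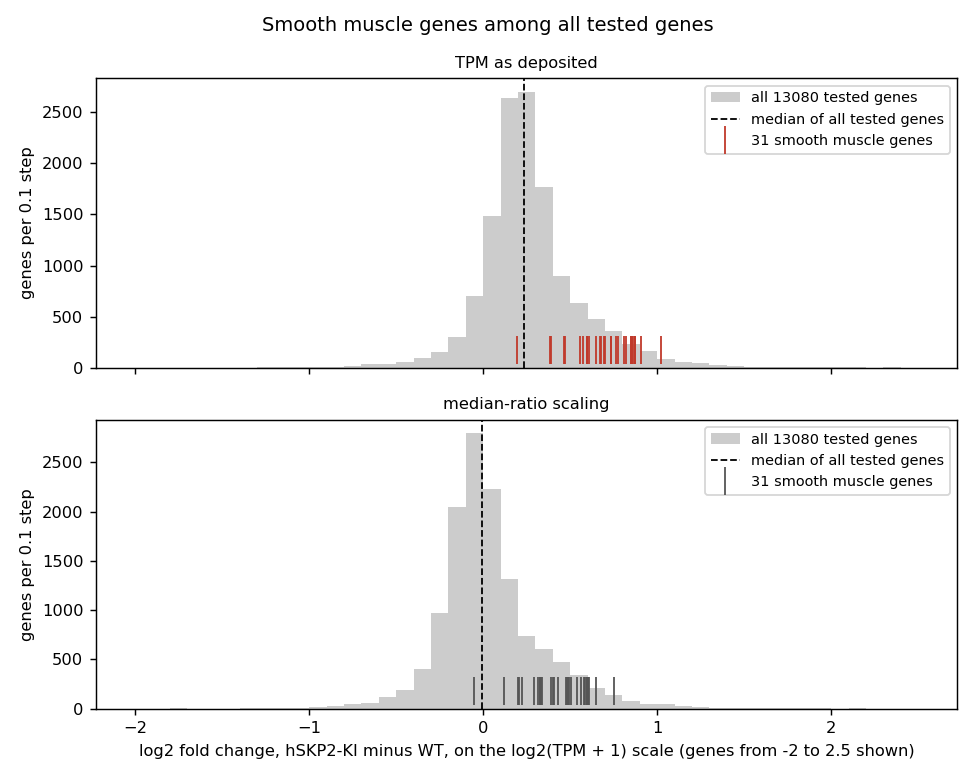
Distribution of the log2 fold change (hSKP2-KI minus WT) over all 13080 genes tested, in steps of 0.1, with TPM as deposited (top) and after median-ratio scaling (bottom), and the 31 smooth muscle genes as vertical ticks. On both scales 30 of the 31 ticks lie to the right of the dashed median of all genes.

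Every hSKP2-KI mouse was above every WT mouse for 30 of the 31 genes with TPM as deposited and for 17 after median-ratio scaling, against 34.0% and 10.3% of all genes tested. The 31 genes together made up 0.774 to 1.07% of all TPM in hSKP2-KI mice and 0.539 to 0.634% in WT mice. The mice kept much the same order from gene to gene. Among the hSKP2-KI mice, replicate 2 had the highest TPM for 23 of the 31 genes and replicate 3 the lowest for 26. Among the WT mice, replicate 4 was highest for 19 genes and replicate 1 lowest for 22. After median-ratio scaling, replicates 2 and 3 were still the highest and lowest hSKP2-KI mice for 21 and 24 genes, while the lowest WT mouse became replicate 2, for 20 genes.

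**Figure D3:**
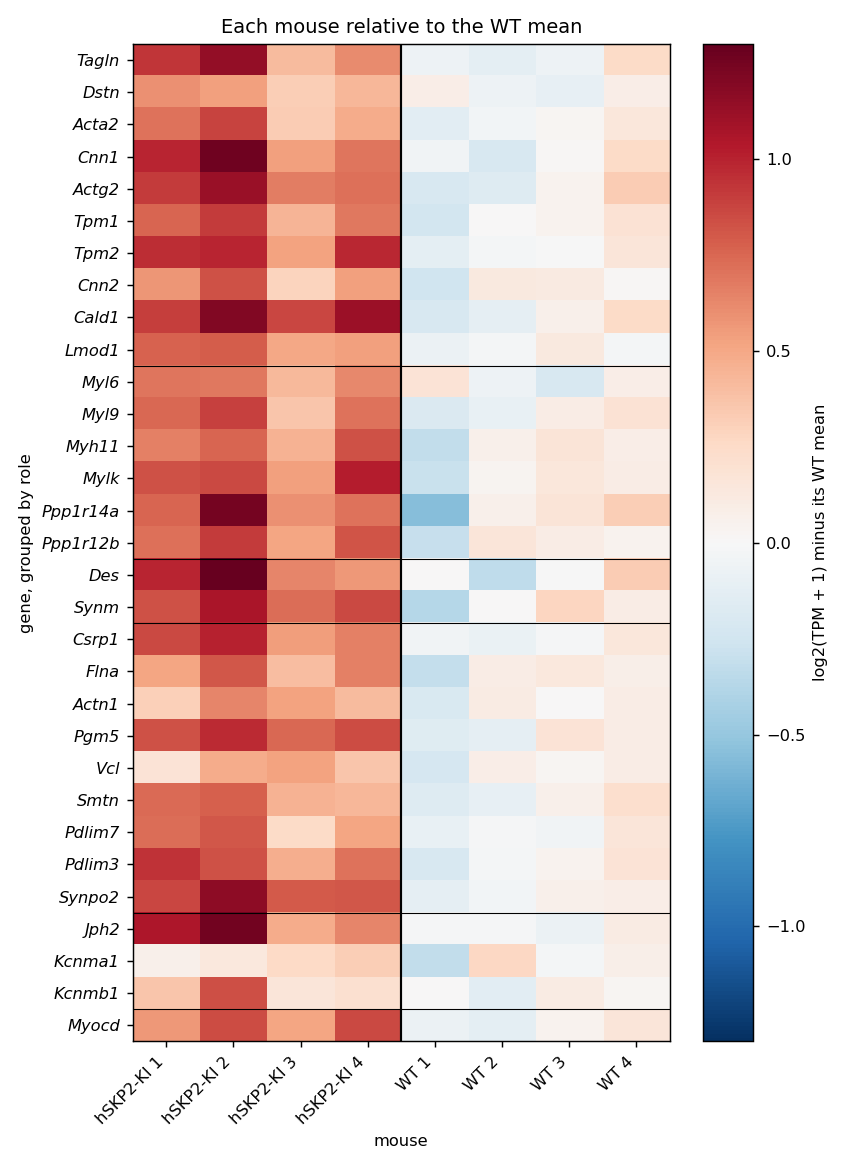
Log2(TPM + 1) of each gene (rows, grouped by role) in each mouse (columns) minus the WT mean of that gene, TPM as deposited, red above and blue below. The median over the 31 genes was 0.75, 0.88, 0.51 and 0.66 in hSKP2-KI replicates 1 to 4 and lay between -0.17 and 0.11 in the WT mice.

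Promoter windows of RefSeq (GRCm38.p6, 250 bases before to 50 bases after a start site) were at hand for 27 of the 31 genes, in 32 windows, and were searched for the CArG box, which is a pair of C, 6 bases that are each A or T, and a pair of G. Actg2, Tagln, Myh11 and Myocd had no window at hand and were not searched. The motif reads as a match on both strands at once. An exact CArG box stood in 4 of the 32 windows, those of Myl9, Cnn2, Myl6 and Vcl, and in 1.63% of all 32851 windows. A CArG box with 1 G or C among its 6 inner bases stood in 7 of the 32 windows, those of Acta2, Myl9, Jph2 (a pair of overlapping windows), Synm, Pdlim3 and Dstn, and in 8.5% of all windows. The stretches of Myl9, the regulatory light chain, Cnn2, Vcl, Jph2 and Acta2 are shown because these genes cover the thin filament, thick filament, adhesion and membrane roles, and capitals mark the motif.
Myl9, chr2:156775214-156775407, plus strand, up to the RefSeq gene: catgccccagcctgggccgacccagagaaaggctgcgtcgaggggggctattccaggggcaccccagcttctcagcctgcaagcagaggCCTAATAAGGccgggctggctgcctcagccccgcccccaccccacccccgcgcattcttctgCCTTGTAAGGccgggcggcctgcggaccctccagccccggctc
Cnn2, chr10:79988519-79988578, plus strand: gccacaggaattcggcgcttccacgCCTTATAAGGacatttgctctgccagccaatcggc
Vcl, chr14:20929148-20929205, plus strand: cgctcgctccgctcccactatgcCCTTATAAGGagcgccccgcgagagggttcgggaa
Jph2, chr2:163398047-163398076, minus strand: gatccaatggCCTTGTTAGGgcaacactga
Acta2, chr19:34255438-34255467, minus strand: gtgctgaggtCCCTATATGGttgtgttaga
Acta2, chr19:34255388-34255417, minus strand: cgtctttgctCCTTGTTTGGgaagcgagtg
The Myl9 window holds an exact box 161 bases and an inexact one 99 bases before the start, and Cnn2 and Vcl hold the same 10 letters, in Cnn2 56 bases and in Vcl 227 bases before the start. The Acta2 matches lie 84 and 34 bases before the RefSeq start used for its window and, in the GENCODE vM21 annotation, inside the first exon of a longer Acta2 transcript. The other stretches shown overlap no exon of GENCODE vM21, and of these only that of Jph2 reaches into the RefSeq gene, by 3 bases. Cald1 and Synpo2, with the largest fold changes of the 31 genes, have windows that hold neither form. Of the genes close behind, Des, Cnn1 and Tpm2 also have windows with neither form, and Synm and Jph2 have the inexact form. Vcl, whose window holds an exact box, and Dstn, with the inexact form, had the smallest fold changes of the genes called as deposited. A match or its absence in these windows is only a description of their letters.

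All 10 thin filament genes were higher in hSKP2-KI mice with TPM as deposited, and 6 of them after median-ratio scaling (Actg2, Cnn1, Cald1, Tpm1, Tpm2 and Lmod1). For this and the other roles, the shares of all genes tested that were called higher were 32.7% and 6.92%. Cald1 (Entrez 109624, chr6:34598495-34775469, RefSeq positions on GRCm38.p6 as for the genes that follow), caldesmon, which binds actin and restrains myosin, had the largest fold change of the 31 genes. Its TPM in hSKP2-KI replicates 1 to 4 was 81.2, 100.4, 79.8 and 94.1, and in WT replicates 1 to 4 it was 37.2, 39.8, 45.3 and 51.6. The lowest hSKP2-KI mouse stood well above the highest WT mouse, and the log2 fold change was 1.02 (SE, the standard error, 0.11; adjusted p = 0.000527) with TPM as deposited and 0.75 (SE 0.11, adjusted p = 0.00401) after median-ratio scaling. Caldesmon is also made outside muscle, from the same gene, and gene-level TPM does not separate its forms.

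The 2 smooth muscle actins differed in how firmly they were called. Actg2 (Entrez 11468, chr6:83512909-83536251), the actin of visceral muscle, had a TPM of 313, 364, 264 and 275 in the hSKP2-KI mice and 144, 148, 172 and 209 in the WT mice, with a log2 change of 0.85 (SE 0.13, adjusted p = 0.0022) and of 0.58 (adjusted p = 0.0246) after median-ratio scaling. Acta2 (Entrez 11475, chr19:34240336-34255585), the actin most used to stain smooth muscle and also made by pericytes and myofibroblasts, had a TPM of 874, 982, 669.6 and 747 in the hSKP2-KI mice and 485, 520.3, 544 and 592 in the WT mice. The genotypes did not overlap for Acta2 with TPM as deposited (log2 fold change 0.60, standard error 0.12, adjusted p = 0.00556), but they overlapped after median-ratio scaling, where the fold change was 0.33 and the adjusted p 0.118. Neither actin transcript shared a stretch of 150 bases, the read length, with a transcript of another gene in GENCODE vM21. The difference between the fold changes of Actg2 and Acta2 was not tested.

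Tagln, an actin-bundling protein and the most abundant of the 31 genes, had a TPM of 1505, 1746, 1049.5 and 1210.1 in the hSKP2-KI mice and 752, 725, 754 and 940.3 in the WT mice. All 4 hSKP2-KI values were above all WT values, and its log2 change of 0.78 (adjusted p = 0.00525) became 0.51 (adjusted p = 0.0763) after median-ratio scaling. Of its transcript, 22.9% of the 150-base stretches also occur in Gm48529, an antisense gene over the same locus, and whether reads were counted by strand is not given in the sources used here. Cnn1, calponin, which binds actin in differentiated muscle, had a TPM of 449.6, 544, 328 and 365 against 218, 194, 228 and 268, with a log2 change of 0.87 (adjusted p = 0.00347) and of 0.60 (adjusted p = 0.0456) after scaling. The related Cnn2, which is also made outside muscle, went from 56.1 ± 6.83 TPM in WT mice to 83.2 ± 12.9 in hSKP2-KI mice (SD, n = 4), a log2 change of 0.56, and had an adjusted p of 0.00832 as deposited and of 0.114 after scaling.

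The tropomyosins Tpm1 and Tpm2, which lie along the actin filament, rose on both scales. Tpm1 TPM was 229 ± 30.6 in hSKP2-KI mice and 141 ± 17.0 in WT mice (SD, n = 4), a 1.63-fold difference, and Tpm2 TPM was 256 ± 37.5 and 139 ± 11.9, a 1.84-fold difference. Lmod1, leiomodin, which starts new actin filaments, went from 19.3, 20.1, 22.5 and 20.02 TPM in the WT mice to 35.5, 36.0, 29.5 and 30.0 in the hSKP2-KI mice. The mice of each genotype lay close together, and the log2 change of Lmod1 was 0.65 (adjusted p = 0.00163) as deposited and 0.39 (adjusted p = 0.0338) after scaling. Dstn, destrin, which severs actin filaments in many cell types, had the smallest fold change of the thin filament genes, 0.47 (adjusted p = 0.00426), and an adjusted p of 0.274 after scaling.

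**Figure D4:**
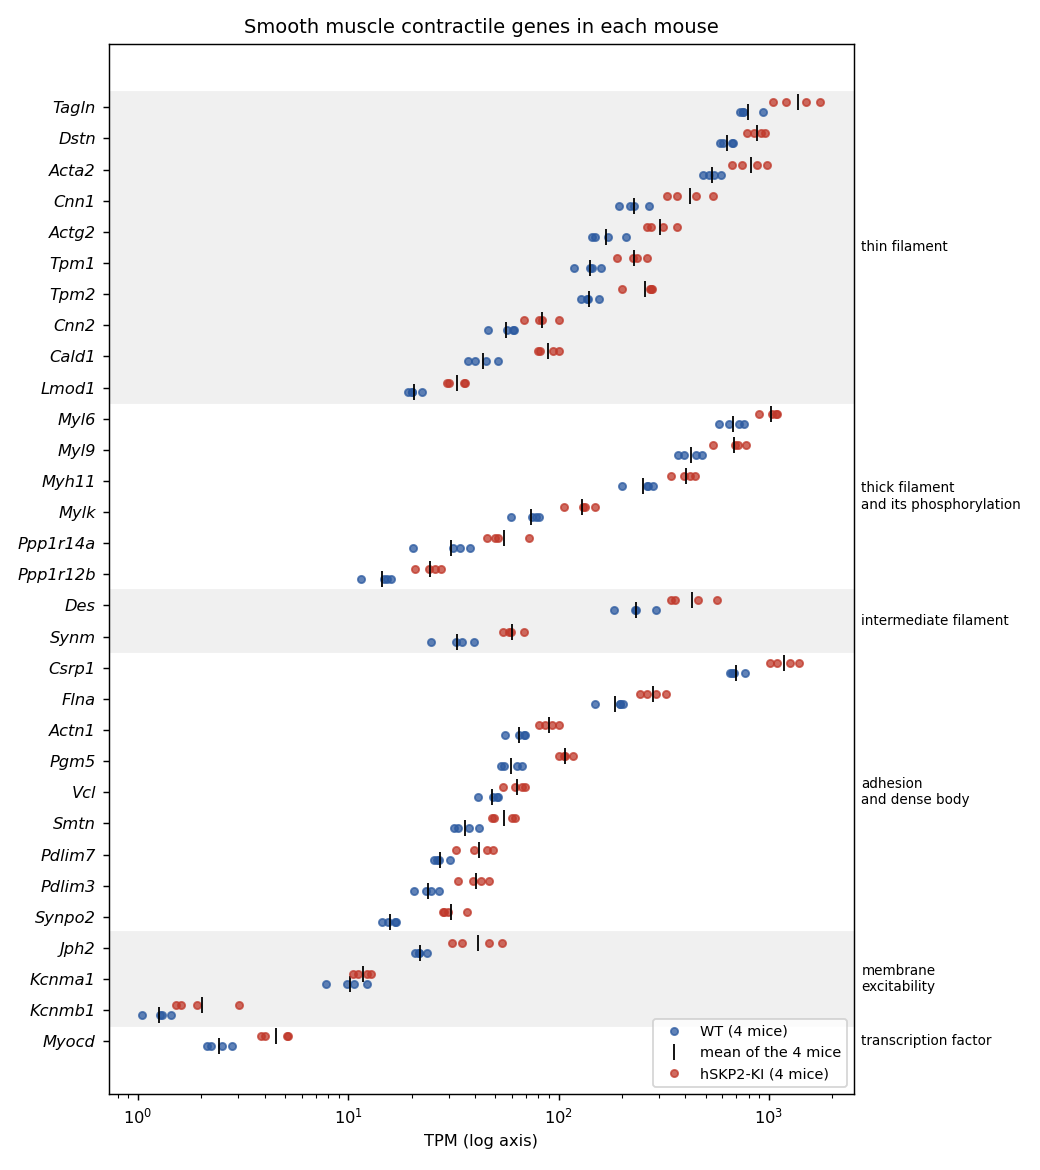
TPM (log axis) of each of the 31 genes in each mouse, hSKP2-KI in red and WT in blue, with black ticks at the mean of 4 mice and genes grouped by role and ordered by WT level. The red and blue points of a gene overlap only for Kcnma1.

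All 6 genes of the thick filament and its phosphorylation were higher with TPM as deposited, and Myh11, Mylk and Ppp1r12b also after median-ratio scaling. Myh11 (Entrez 17880, chr16:14194527-14292188), the smooth muscle myosin heavy chain and the most specific marker of the lineage, had a TPM of 395, 422, 342 and 444 in the hSKP2-KI mice and 200.2, 262, 281 and 266 in the WT mice. The groups did not overlap as deposited, with a log2 change of 0.67 (SE 0.12, adjusted p = 0.00355), and overlapped after median-ratio scaling, where it was 0.40 (SE 0.10, adjusted p = 0.035). The light chains Myl9 and Myl6 had TPM of 679.8 ± 99.9 and 1026 ± 87.7 in hSKP2-KI mice and of 424 ± 50.1 and 676 ± 80.2 in WT mice (SD, n = 4), and after scaling their adjusted p were 0.0636 and 0.116. Myl6 is the essential light chain of non-muscle myosin too, and 4.41% of the 150-base stretches of its transcript occur in processed pseudogenes elsewhere.

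The kinase of the light chain and a targeting subunit of its phosphatase were both higher. Mylk, myosin light chain kinase, had a TPM of 130.4, 133, 106 and 149 in the hSKP2-KI mice and 59.6, 74.99, 80.9 and 78.2 in the WT mice, a log2 change of 0.81 (adjusted p = 0.00187) and of 0.54 (adjusted p = 0.0149) after scaling. Ppp1r12b, a targeting subunit of myosin phosphatase, had a TPM of 24.5 ± 2.92 and 14.4 ± 2.01 in hSKP2-KI and WT mice (SD, n = 4), with a log2 change of 0.74 (adjusted p = 0.00269) and of 0.48 (adjusted p = 0.0156) after scaling. Ppp1r14a, which inhibits that phosphatase when phosphorylated, ranged from 45.7 to 72.3 TPM in hSKP2-KI mice and from 20.2 to 37.7 in WT mice. Its log2 change of 0.82 had the largest standard error of the 31 genes, 0.19, and its adjusted p of 0.00972 became 0.0624 after scaling.

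Both intermediate filament genes were higher with TPM as deposited. Des, desmin, had a TPM of 459, 568, 358 and 341 in the hSKP2-KI mice and 232, 182, 229.6 and 289.7 in the WT mice, with a log2 change of 0.87 (adjusted p = 0.00542) and of 0.60 (adjusted p = 0.0716) after scaling. Synm, synemin, which joins desmin filaments to adhesion sites, had a TPM of 58.3, 68.5, 54.3 and 59.5 against 24.7, 32.4, 39.4 and 34.5. Its hSKP2-KI values lay closer together than those of Des, and its log2 change of 0.87 (adjusted p = 0.00187) was 0.61 (adjusted p = 0.0132) after scaling.

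Desmin is also a skeletal muscle protein, and transcripts of fast skeletal muscle were high in 1 mouse of each genotype. Tnnt3, the fast troponin T, was at 26.5 TPM in hSKP2-KI replicate 4 and 12.0 TPM in WT replicate 2 and under 1 in the other 6 mice. These were the mice with the lowest Des TPM of their genotype, 341 and 182. Summed over 11 skeletal muscle markers, TPM was 305 to 547 in hSKP2-KI mice and 195 to 371 in WT mice, most of it from Acta1, the skeletal actin, whose TPM was 317 ± 55.9 and 189 ± 32.4 (SD, n = 4) and whose log2 fold change was 0.75 (adjusted p = 0.00547). Among the hSKP2-KI mice Acta1 was highest in replicate 1, at 370 TPM, where Tnnt3 was at 0.89, and was at 305 in replicate 4. Among the WT mice Acta1 was highest in replicate 2, at 229 TPM. Of the 11 markers, 7 were tested. With TPM as deposited Acta1 and Tnnc2 (0.83, adjusted p = 0.013) were called higher, 2 of 7 against 32.7% of all genes. By limma after median-ratio scaling 0 were called, against 6.92% of all genes, and 2 had an unadjusted p under 0.05. Without hSKP2-KI replicate 4, or without WT replicate 2, 29 of the 31 smooth muscle genes were still called higher with TPM as deposited, and 11 and 7 after median-ratio scaling.

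All 9 genes of adhesion sites and dense bodies were higher with TPM as deposited, and Synpo2, Pgm5, Csrp1 and Pdlim3 also after median-ratio scaling. Synpo2, synaptopodin 2, which bundles actin at dense bodies, had a TPM of 29.8, 36.8, 28.1 and 28.4 in the hSKP2-KI mice and 14.5, 15.4, 16.6 and 16.8 in the WT mice. This was the second largest fold change of the 31 genes, 0.91 (SE 0.10, adjusted p = 0.000502) as deposited and 0.65 (SE 0.10, adjusted p = 0.00491) after scaling. Pgm5, a relative of phosphoglucomutase found at muscle adhesion sites, had a TPM of 108 ± 7.03 and 59.5 ± 6.75 (SD, n = 4) and the smallest adjusted p of the 31 genes as deposited, 0.00044. Csrp1, a LIM protein abundant in smooth muscle, had a TPM of 1252, 1382, 1005 and 1088 against 670.0, 650.3, 684 and 767, with a log2 change of 0.76 (adjusted p = 0.0015) and of 0.49 (adjusted p = 0.031) after scaling.

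Pdlim3, a LIM domain protein of muscle dense bodies and Z lines, had a TPM of 46.5, 42.8, 33.3 and 39.3 against 20.4, 23.3, 24.6 and 27.0, and a log2 change of 0.74 (adjusted p = 0.00226) and of 0.48 (adjusted p = 0.025) after scaling. For each of these 4 genes the groups did not overlap on either scale. Every hSKP2-KI mouse was above every WT mouse for 34.0% of all genes tested as deposited and for 10.3% after median-ratio scaling.

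The other 5 genes of this group were called with TPM as deposited only. Flna, filamin A, Actn1, an alpha-actinin, and Vcl, vinculin, had log2 changes of 0.59, 0.47 and 0.39 as deposited, and of 0.33, 0.20 and 0.12 after scaling, where the adjusted p were 0.0634, 0.103 and 0.354. Vcl TPM was 54.5, 67.2, 69.1 and 62.0 in the hSKP2-KI mice and 41.1, 51.1, 48.9 and 51.3 in the WT mice, so that the lowest hSKP2-KI mouse was just above the highest WT mouse. Of the Vcl transcript, 38% of the 150-base stretches also occur in transcripts of Ap3m1, the neighbouring gene on the opposite strand whose end overlaps it, so that the Vcl value is less certain than the others. Smtn, smoothelin, and Pdlim7 had log2 changes of 0.60 and 0.58 as deposited and adjusted p of 0.0875 and 0.12 after scaling. Of the transcripts of Actn1 and Smtn, 5.97% and 5.38% of the 150-base stretches also occur in Gm47766 and Gm11946, genes on their opposite strands.

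Of the 3 genes of membrane excitability, only Jph2 was called. Jph2, junctophilin 2, which holds the calcium store close to the surface membrane, had a TPM of 46.7, 53.7, 31.2 and 34.6 in the hSKP2-KI mice and 21.6, 21.7, 20.8 and 23.7 in the WT mice. The hSKP2-KI mice were spread widely and the WT mice hardly at all, and the log2 fold change was 0.86 (adjusted p = 0.00359) as deposited and 0.60 (adjusted p = 0.0398) after scaling. Kcnma1, the pore of the large-conductance calcium-activated potassium channel, which is also made by nerve and epithelium, had a TPM of 10.5, 11.1, 12.2 and 12.8 in the hSKP2-KI mice and 7.87, 12.3, 9.87 and 10.6 in the WT mice. Its groups overlapped, its log2 fold change was 0.19 (SE 0.13, adjusted p = 0.229) as deposited, and its sign turned under each of the 3 other scalings, to -0.05 (adjusted p = 0.765) after median-ratio scaling. Kcnmb1, the smooth muscle subunit of that channel, was near the lower limit of the values tested, at 1.91, 3.02, 1.51 and 1.61 TPM against 1.27, 1.05, 1.43 and 1.298, and was not called (0.39, standard error 0.16, adjusted p = 0.0786).

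Myocd (Entrez 214384, chr11:65173608-65269989), myocardin, the coactivator of SRF that drives the smooth muscle programme, was higher on both scales. Its TPM was 4.02, 5.12, 3.84 and 5.17 in the hSKP2-KI mice and 2.23, 2.12, 2.515 and 2.79 in the WT mice, without overlap. The log2 fold change was 0.69 (SE 0.13, adjusted p = 0.00401) as deposited and 0.49 (SE 0.12, adjusted p = 0.0266) after scaling. Under quantile normalization Myocd was not called.

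The other genes that control the smooth muscle programme were read from a list of 17, of which 14 were tested. With TPM as deposited 8 were called higher, against 32.7% of all genes tested, and after median-ratio scaling Klf5 alone, 1 of 14 against 6.92%. In this list and in the one that follows, limma called 0 genes lower with TPM as deposited, also at an unadjusted p under 0.05. Klf5, which is abundant in prostate epithelium as well as in remodelling muscle, had a TPM of 41.0 ± 4.94 in hSKP2-KI mice and 20.2 ± 4.69 in WT mice (SD, n = 4), a log2 change of 1.00 (adjusted p = 0.0022). Klf4, which represses contractile genes in vessel wall cells, came next at 0.73 (adjusted p = 0.0136), with overlapping groups. The median log2 change of the 14 genes was 0.34 as deposited and 0.12 after median-ratio scaling.

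Receptors, channels and calcium stores of muscle were read from a list of 26 genes, of which 19 were tested. With TPM as deposited 13 of the 19 were higher, against 32.7% of all genes. After median-ratio scaling Ednra, P2rx1, Itpr1 and Cacna1c were higher, 4 of 19 against 6.92% of all genes. Orai1, a calcium channel of the surface membrane, was lower on that scale (-0.42, adjusted p = 0.0216), 1 of 19 against 4.25% of all genes. With TPM as deposited Orai1 was at -0.16 (adjusted p = 0.167). Ednra, the receptor for endothelin 1, had a TPM of 6.05, 11.6, 7.13 and 6.17 in the hSKP2-KI mice and 3.34, 4.05, 3.26 and 3.86 in the WT mice. The log2 change of Ednra was 0.88 (adjusted p = 0.00571) as deposited and 0.65 (adjusted p = 0.033) after scaling. P2rx1, the ATP-gated channel through which sympathetic nerves contract genital smooth muscle, had a TPM of 58.1, 62.3, 42.2 and 52.6 against 27.9, 27.2, 31.4 and 34.4, a log2 change of 0.80 (adjusted p = 0.00209) and of 0.54 (adjusted p = 0.026) after scaling. For both genes every hSKP2-KI mouse was above every WT mouse with TPM as deposited, against 34.0% of all genes tested.

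To ask whether the contractile genes moved apart from the related genes that other cells use, 13 of the 31 were each divided by a counterpart within the same mouse, which leaves the ratio nearly free of the scaling. The log2 ratio was higher on average in hSKP2-KI mice for 11 of the 13 pairs. For 3 pairs every hSKP2-KI mouse was above every WT mouse, with an exact two-sided permutation p of 0.0286, the smallest that 4 against 4 mice can give, and adjusted over the 13 pairs none passed 0.05 in this permutation test (adjusted p = 0.124 for all 3). These pairs were Actg2 to Actg1, cytoplasmic gamma-actin, with a difference of 0.88 on the log2 scale, Myh11 to Myh9, a non-muscle myosin heavy chain, with 0.50, and Actn1 to Actn4, another alpha-actinin, with 0.34. Without hSKP2-KI replicate 3 the number of pairs without overlap was 6, and without WT replicate 4 it was 5.

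The counterparts were not alike in their own levels. Actg1 TPM was 1561 ± 199 in hSKP2-KI mice and 1585 ± 177 in WT mice (SD, n = 4), a log2 change of -0.02 (adjusted p = 0.875). Myh9 and Actn4 were not called either, at 0.17 and 0.13. Actb, cytoplasmic beta-actin, rose by 0.65 (adjusted p = 0.0015), Cnn3 by 0.71 (adjusted p = 0.000502), Tpm4 by 0.66 (adjusted p = 0.00474), Ppp1r12a by 0.68 (adjusted p = 0.00222) and Vim, vimentin, by 0.92 (adjusted p = 0.00925). Tagln2, Tpm3, Tmod3 and Myl12a were also called, at 0.39, 0.38, 0.35 and 0.24. With TPM as deposited 9 of the 13 counterparts were called higher in all, against 32.7% of all genes tested. After median-ratio scaling 3 of the 13 were called, Actb, Cnn3 and Ppp1r12a, against 6.92% of all genes. The adjusted p of Tpm4 and Vim were then 0.0582 and 0.0643. The log2 ratio of Acta2 to Actb was -0.28 ± 0.14 in hSKP2-KI mice and -0.23 ± 0.14 in WT mice (SD, n = 4), and that of Des to Vim was 1.17 ± 0.36 and 1.22 ± 0.37, differences of -0.05 in both cases that were within the spread between mice. The signs of these 2 differences turned when single mice were left out.

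**Figure D5:**
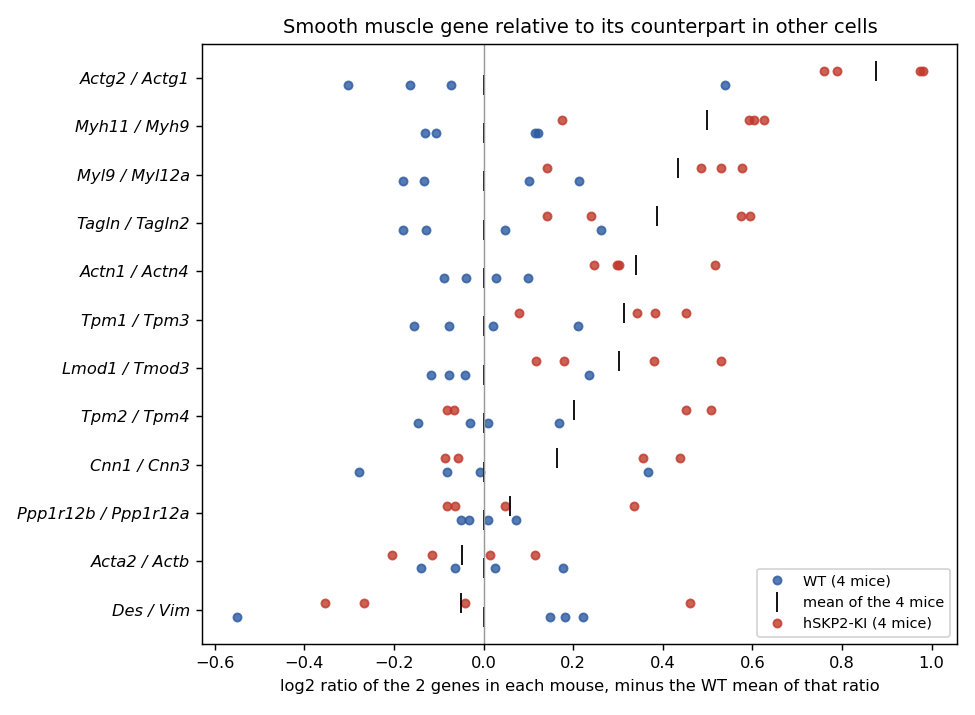
Log2 ratio of a smooth muscle gene to its counterpart in each mouse minus the WT mean of that ratio, for 12 pairs, hSKP2-KI in red and WT in blue with black ticks at the means of 4 mice, ordered by the difference between genotypes. The red and blue points separate for Actg2 to Actg1, Myh11 to Myh9 and Actn1 to Actn4, and the differences run from 0.88 to -0.05.

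Most fibroblast, endothelial and macrophage markers were also higher with TPM as deposited. Over all genes tested, 32.7% were called higher on that scale and 6.92% after median-ratio scaling. All 8 fibroblast markers were higher with TPM as deposited and Lum, Dpt and Dcn after median-ratio scaling, and their summed TPM was 848 to 1493 in hSKP2-KI mice and 462 to 659 in WT mice. Lum and Dpt, a proteoglycan and a matrix protein, rose most, by 1.81 (adjusted p = 0.000844) and 1.27 (adjusted p = 0.00355) on the log2 scale. Of 6 endothelial markers 5 were higher, and Pecam1 and Egfl7 after scaling, led by Pecam1 (0.93, adjusted p = 0.00393) and Cdh5 (0.78, adjusted p = 0.0135), with summed TPM of 42.0 to 68.8 and 24.6 to 34.5. Of 5 macrophage markers 4 were higher, led by Cd68 (1.51, adjusted p = 0.0132) and C1qb (1.00, adjusted p = 0.0204), with summed TPM of 149.9 to 319 and 63.2 to 139.6; after scaling limma called 0 of the 5, and 3 had an unadjusted p under 0.05. Cd68 was at 59.1 TPM in hSKP2-KI replicate 2, the mouse in which most muscle genes were highest, and at 14.8 to 18.1 in the other hSKP2-KI mice. Without that mouse 29 of the 31 muscle genes were still called with TPM as deposited, and 7 after median-ratio scaling.

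Pericytes, which wrap small vessels and share Acta2 with smooth muscle, were read from 7 markers. Of these 6 were tested and only Abcc9 was called (0.50, adjusted p = 0.0442), 1 of 6 against 32.7% of all genes. By limma as deposited, 4 of the 6 were higher at an unadjusted p under 0.05. The median log2 change of the 6 was 0.39, above the 0.23 of all genes. The summed TPM of the 7 markers was 27.6 to 47.3 in hSKP2-KI mice and 25.5 to 32.8 in WT mice, so that the groups overlapped. Of 5 luminal epithelial markers, Epcam (0.37, adjusted p = 0.0381) and Cdh1 (0.33, adjusted p = 0.0238) were higher as deposited, 2 of 5 against 32.7% of all genes, with summed TPM of 1709.6 to 1914 and 1436 to 1641 and a median log2 change of 0.19, below the 0.23 of all genes. Of 4 basal markers, Krt14 (0.72, adjusted p = 0.0193) and Krt15 (0.60, adjusted p = 0.0122) were higher, 2 of 4 against 32.7% of all genes. The 4 basal markers had summed TPM of 292 to 424 and 196 to 305. Of 4 Schwann cell markers only S100b (0.63, adjusted p = 0.0126) was called, 1 of 4 against 32.7% of all genes. The 4 Schwann cell markers had summed TPM of 6.65 to 13.6 and 4.997 to 8.37. None of 4 adipocyte markers was called by limma, at an adjusted or an unadjusted p under 0.05, and their summed TPM was 40.6 to 193 and 24.6 to 156. The 4 seminal vesicle markers summed to at most 0.656 TPM in any mouse, with Svs2 listed at 0 in all. Of the pericyte, luminal, basal and Schwann cell markers, limma called 0 after median-ratio scaling, and at an unadjusted p under 0.05 there were 1 lower pericyte, 0 luminal, 1 higher basal and 1 higher Schwann cell marker. The part of these other cell types in the differences of the muscle genes was not tested.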

How the data were processed

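Ventral prostate RNA from 4 hSKP2-KI and 4 WT mice was poly(A)-selected and sequenced as paired-end reads with one library per mouse, and the authors trimmed and mapped the reads in CLC software. The labels list the builds mm10 and GRCm38; the version, annotation and counting options are not given in the sources used here. The authors deposited TPM, reads per gene divided by length and scaled to the same total in each sample. TPM does not give the reads behind a value or the depth each library reached, so counting intervals are not given. The table holds 0 columns from other samples.

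Genes reaching a TPM of 1 in 4 or more samples were fitted as log2(TPM + 1) on genotype by limma 3.58.1 (R 4.3.3, mean-variance trend on), and p-values were adjusted over all 13080 genes tested by the Benjamini-Hochberg method at 0.05. A fold change on this scale understates that of genes with low TPM. Ratios of 13 genes to counterparts were compared with an exact permutation test over 70 assignments. Mice were grouped by genotype from the labels. The fit was tested on simulated data. The alternatives were quantile normalization, median-ratio scaling, dropping the 20 most abundant genes before rescaling, a pseudocount of 0.1, no filter, a mean TPM of at least 5, a replicate block, robust empirical Bayes, sample quality weights and leaving out each mouse. Leaving out mice or blocking after median-ratio scaling was added once the data had been seen. The limma p-values weigh the genotype difference against the spread between mice of a genotype, which the fit draws toward a trend over all genes. The correlations of deviations between samples of the same replicate number were 0.22, -0.11, 0.17 and -0.01 across genes. Those of differently numbered mice were not computed, so these values cannot show whether the numbers pair the mice. The main fit took the mice as unpaired.

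The members, the gene lists and the counterparts were chosen with earlier results of these data known. The genes named are the 31 members, counterparts of members, Skp2, Pbsn and, in each other list, the 2 largest rises and the 2 largest falls among genes called; Tnnt3, Svs2, and the genes named because few were called after scaling were named after their values were seen. One counterpart, with its pair, and one other gene list are not reported here, although the counts over 13 pairs include that pair. Promoter windows are those of RefSeq on GRCm38.p6, and shared stretches of 150 bases were sought on both strands of GENCODE vM21 transcripts, from the longest coding transcript of each gene. Figures were drawn with matplotlib 3.10.9.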

Additional observations from a re-analysis of the deposited data

Results flagged for a closer look

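Within the 4 mice of a genotype, 3 of the 62 sets of values tested over the 31 genes had a mouse farther from the others than Dixon's critical value for 4 samples allows, where about 1 set in 20 does so by chance. Tagln was at 940.3 TPM in WT replicate 4 and at 725 to 754 in the other WT mice. Tpm2 was at 199.8 TPM in hSKP2-KI replicate 3 and at 271 to 276 in the other hSKP2-KI mice. Flna was at 149 TPM in WT replicate 1 and at 195 to 202 in the other WT mice. All 3 genes were called higher in hSKP2-KI mice with TPM as deposited when the mouse in question was left out.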

How the results depend on the processing

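The count of 29 smooth muscle genes called higher was 16 after median-ratio scaling and 19 after quantile normalization, and it stayed 29 with each mouse left out. The number without overlap, 30, was 17 after median-ratio scaling. Of all genes tested, 905, 709 and 892 were higher and 556, 608 and 438 lower after median-ratio scaling, quantile normalization and rescaling without the 20 most abundant genes, against 4272 and 161 with TPM as deposited, and 2839 to 4548 were higher with 1 mouse left out, the lowest without WT replicate 1. After median-ratio scaling, 9 smooth muscle genes were called without hSKP2-KI replicate 1, 7 without hSKP2-KI replicate 2, 8 without WT replicate 1, 7 without WT replicate 2 and 11 to 21 without any other mouse, and 8 were called with the replicate block, a choice that left the count at 29 with TPM as deposited. The pairs without overlap numbered 3 to 6 with 1 mouse left out. Kcnma1 turned to -0.051, -0.081 and -0.033 under the 3 scalings. With 1 mouse left out, the difference in log2 ratio ran from -0.234 to 0.051 for Des to Vim, from -0.101 to 0.012 for Acta2 to Actb and from -0.033 to 0.106 for Ppp1r12b to Ppp1r12a, and turned sign in 4, 2 and 1 of the 8 fits. The causes were not tested.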
